A study of Mus musculus with 15 samples.

Results

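Mature dermal adipocytes of mice at postnatal day 49 (P49) were compared with those at postnatal day 25 (P25), gene by gene, by RNA sequencing. All animals were C57BL/6, with no transgene, deletion or treatment named in the labels. The body site of the skin and the sex of the mice are not given in the sources used here. Collagenase IV and Dispase II were used to digest the tissue, and the buoyant fat cells were collected by centrifugation. There were 3 libraries at P25 and 3 at P49, out of 15 libraries that also covered P21, P29 and P35. The deposited table held 35275 genes in FPKM, that is fragments scaled to gene length in kilobases and to library size. A gene was included when it reached 1 FPKM in at least 3 of the 15 libraries, which 12259 genes did. Whether each library came from its own animal or from pooled animals is not stated, so the p-values measure the spread between these libraries, which may be technical. Every comparison was made with and without P25 replicate 2, a library that stood apart from the other P25 libraries.

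Dermal adipocytes lie beneath the hair follicles as dermal white adipose tissue. In mouse dorsal skin this layer thickens while follicles grow and thins when they regress and rest, through changes in cell size, lipid storage and cell number. Dermal fat cells and their precursors exchange signals with the follicle, among them platelet-derived growth factors, bone morphogenetic proteins and their antagonists, and Wnt and Hedgehog ligands. They also take part in defence of the skin, scar formation and heat insulation.

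The reads counted to genes could be recovered from FPKM and gene length, and came to 28701773, 27319932 and 24441777 for P25 replicates 1, 2 and 3 and to 23678129, 25177814 and 28439436 for P49 replicates 1, 2 and 3. On log2(FPKM + 1), P25 replicates 1 and 3 correlated across genes at r = 0.993 and the P49 libraries among themselves at 0.992 to 0.994. P25 replicate 2 correlated with the other P25 libraries at 0.925 to 0.928, and with the P21 libraries at 0.958 to 0.971. These correlations are over genes, which are not independent replicates. By these correlations P25 replicate 2 resembled P21 more than its own label, but gene lists differed in this. The values here are list medians relative to the P49 mean (log2). For cholesterol synthesis P25 replicate 2 was at 0.45, P25 replicates 1 and 3 at 0.30 and 0.71, and P21 at -0.64 to -0.48. For extracellular matrix it was at 1.77, P25 replicates 1 and 3 at 0.31 and 0.39, and P21 at 1.11 to 1.78. Whether its label or its dissection differed was not tested, so the values with all libraries hold only if it is a P25 library. P25 replicate 2 also had the lowest summed FPKM of 24 mature adipocyte markers, 29780, against 59790 and 53630 in P25 replicates 1 and 3 and 57820, 54930 and 56340 at P49. Its summed level of 16 endothelial markers was 351.5 FPKM, against 86.5 and 75.1 in P25 replicates 1 and 3 and 91.7, 101.9 and 65.4 at P49. Its 18 macrophage and monocyte markers summed to 1872 FPKM, against 650.1 and 500.8 in P25 replicates 1 and 3 and 1515, 1088 and 1185 at P49. In bulk libraries fewer cells of a type and less RNA per cell cannot be told apart.

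With all libraries, 809 of 12259 genes differed between P49 and P25 (6.60%, limma, adjusted p under 0.05). Of these, 428 were higher at P49 (3.49%) and 381 lower (3.11%). Without P25 replicate 2, 1871 genes differed (15.3%), 864 of them higher (7.05%) and 1007 lower (8.21%). The unadjusted p was under 0.05 for 2854 genes with all libraries and 3731 without P25 replicate 2. Both fits called 712 genes, 370 higher and 342 lower, and 0 in opposite directions. The median difference of all genes tested was -0.0048 on the log2(FPKM + 1) scale with all libraries and 0.0012 without P25 replicate 2. Differences on this scale understate the change of genes at low FPKM. Calls of at least 2-fold numbered 79 higher and 54 lower with all libraries, and 245 higher and 66 lower without P25 replicate 2. Regardless of the test, the 3 P25 and the 3 P49 libraries did not overlap for 25.2% of genes, 12.0% with P49 higher and 13.2% with P49 lower. Over the 5 libraries without P25 replicate 2 this held for 54.1%, 26.6% with P49 higher and 27.5% with P49 lower. Of the 809 genes called with all libraries 804 did not overlap, and the largest rises and falls below were chosen among such genes. For a called gene, lack of overlap is thus a description and no further support.

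**Figure D1:**
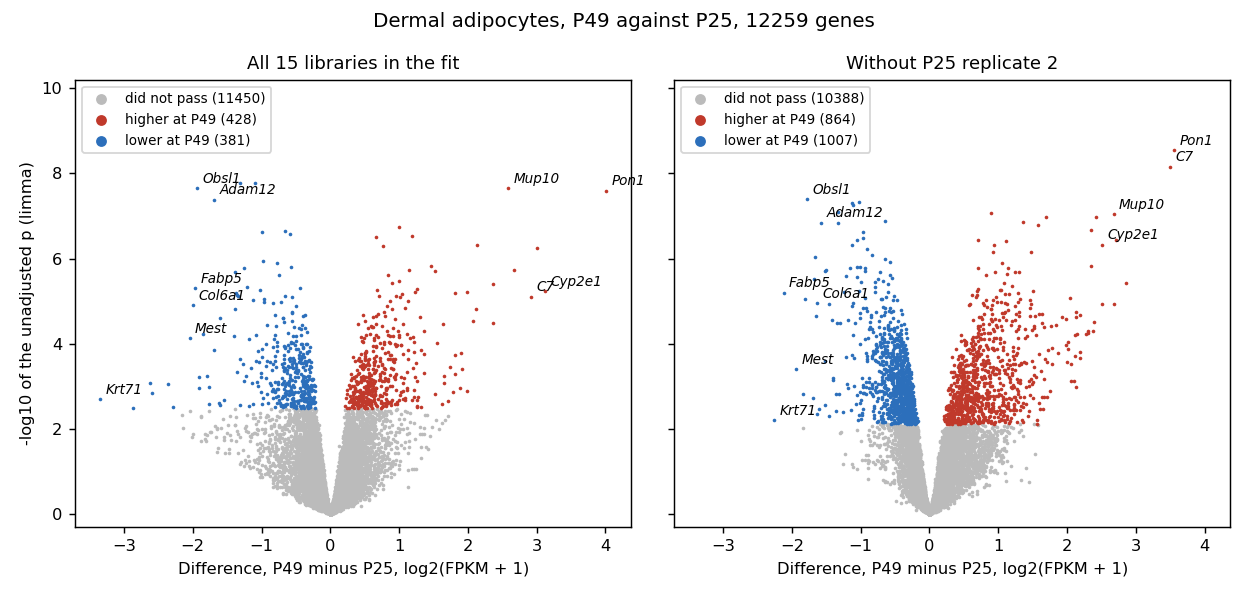
Difference between P49 and P25 in log2(FPKM + 1) on the x axis against -log10 of the unadjusted limma p on the y axis, 1 point per gene, with all 15 libraries (left) and without P25 replicate 2 (right). Red points are the 428 and 864 genes higher at P49, blue points the 381 and 1007 lower at P49, and Pon1 lies farthest to the right in both panels.

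The spread was estimated over all 5 ages. Estimated from the 6 P25 and P49 libraries alone, 29 genes passed, and from the 5 left without P25 replicate 2, 2671. How far these calls rest on single libraries varied. Of the rises with all libraries, 103 of 428 passed in every one of 15 fits that left out 1 library, and of the falls 92 of 381. No call changed sign. Without P49 replicate 3, the omission that lost most, 260 genes were called, against 267 without P49 replicate 1, 335 without P49 replicate 2 and 427 without P25 replicate 3. Starting from the fit without P25 replicate 2, the further loss of P25 replicate 3 left replicate 1 alone at P25 and 341 genes called. Of the genes called only without P25 replicate 2, 494 were higher at P49 and 665 lower. Among those 494, P25 replicate 2 stood at or above the lowest P49 library for 379, and among those 665 at or below the highest P49 library for 449. Below, a call described as robust passed in all 15 fits with 1 library left out, P25 replicate 2 included. That label does not cover leaving out P25 replicates 2 and 3 together, which leaves 1 library at P25. Some robust calls were lost there, those of Rarres2, Mest and Vnn1 among them.

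The largest robust rise was that of Pon1 (ENSMUSG00000002588, chromosome 6, 5168090 to 5193946, GRCm38), which encodes paraoxonase 1, a lipid-associated esterase best known from liver and blood lipoproteins. Pon1 stood at 6.75, 1.59 and 4.58 FPKM in P25 replicates 1, 2 and 3 and at 72.0, 65.0 and 95.7 FPKM at P49. All 3 P49 libraries lay far above all P25 libraries. The difference was 4.01 ± 0.32 (log2, ± SE here and below, adjusted p = 6.24e-05), and 3.56 ± 0.22 without P25 replicate 2 (adjusted p = 3.49e-05). Pon1 averaged 12.9 FPKM at P21, 5.45 at P29 and 8.91 at P35, so that 84.0% of the log2 difference between P25 replicates 1 and 3 and P49 fell after P35.

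Cyp2e1 (ENSMUSG00000025479, chromosome 7, 140763739 to 140774975), a cytochrome P450 that oxidises small molecules such as ethanol and acetone, rose from already abundant levels. It stood at 561, 142 and 449.6 FPKM at P25 and at 2870.3, 2719.7 and 3032 FPKM at P49. P25 replicate 2 was the lowest library, and the groups did not overlap. The difference was 3.12 ± 0.41 (adjusted p = 0.00194) and without P25 replicate 2 it was 2.51 ± 0.25 (adjusted p = 0.000231). As for Pon1, most of it came late, with 73.5% of the log2 difference after P35.

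Other enzymes rose with them. Pla2g5, a secreted phospholipase A2, was at 3.50, 1.42 and 2.57 FPKM at P25 and at 15.6, 15.4 and 18.8 FPKM at P49 (2.37 ± 0.30, adjusted p = 0.00164). Vnn1, which encodes the pantetheinase vanin 1, was at 7.46, 3.35 and 4.44 FPKM at P25 and at 22.7, 22.6 and 26.1 FPKM at P49 (2.08 ± 0.32, adjusted p = 0.00437). Both rises were robust. They differed in timing. Vnn1 already averaged 21.9 FPKM at P29 and 22.7 at P35, and 21.5 before P25, at P21, so that P25 was the low age of the series. Pla2g5 averaged 6.42 FPKM at P21, 6.74 at P29 and 10.1 at P35, below every P49 library. Inmt, an indole N-methyltransferase, was at 1.29, 8.56 and 0.912 FPKM at P25 and at 13.96, 14.8 and 10.02 FPKM at P49 (1.99 ± 0.48, adjusted p = 0.0301). Its call was lost without any one of P25 replicates 1 and 3 and the P49 libraries, with an adjusted p of up to 0.103, and stood at 0.000207 without P25 replicate 2. Kcne4, a subunit of potassium channels, was at 2.92, 13.5 and 4.56 FPKM at P25 and at 24.8, 20.6 and 23.4 FPKM at P49. Its difference was 1.81 ± 0.39 (adjusted p = 0.0184, up to 0.0713 with 1 of 4 libraries left out), and 2.35 ± 0.26 without P25 replicate 2 (adjusted p = 0.000501). Myoc, which encodes the secreted glycoprotein myocilin, was at 0.587, 3.36 and 0.354 FPKM at P25 and at 8.04, 6.30 and 6.31 FPKM at P49 (1.90 ± 0.36, adjusted p = 0.0108, robust).

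Major urinary proteins are small secreted lipocalins that carry pheromones and lipids, made chiefly by the liver, and their genes lie in a cluster of near-identical copies on chromosome 4. Of 8 tested, 6 rose with all libraries and 5 without P25 replicate 2, against 3.49% and 7.05% of all genes, and 0 fell. The median of the 8 was 1.69 and 1.43. Mup10 (chromosome 4, 60578260 to 60582199) was at 1.73, 2.01 and 1.32 FPKM at P25 and at 9.84, 18.7 and 18.5 FPKM at P49, from 30 to 51 reads per P25 library and 216 to 488 per P49 library. The difference was 2.59 ± 0.21 (adjusted p = 6.24e-05). Mup11 was at 1.27, 0.945 and 2.07 FPKM at P25 and at 16.7, 17.9 and 19.8 FPKM at P49 (3.0005 ± 0.32, adjusted p = 0.000468). The rises of Mup7 (2.67), Mup10, Mup11 and Mup15 (2.12) were robust, and their P25 and P49 libraries did not overlap. The calls of Mup2 and Mup3 were lost without 4 and 13 of the libraries, with adjusted p of up to 0.132 and 0.162, and Mup3 stood at an adjusted p of 0.0657 without P25 replicate 2. Because reads can be shared among the copies, the level of each gene is uncertain. All 4 were higher at P29 than at P25, with P29 means of 19.5 FPKM for Mup7, 13.2 for Mup15, 6.45 for Mup10 and 5.39 for Mup11. After P35 came 22.5% of the log2 difference of Mup10, 38.9% of that of Mup11 and 5.51% of that of Mup15. The P49 mean of Mup7 lay below its P35 mean.

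Late components of complement, the cascade that opsonises and lyses microbes, were among the largest rises. C7 (ENSMUSG00000079105, chromosome 15, 4988762 to 5063773), part of the membrane attack complex, was at 0.347, 3.85 and 0.544 FPKM at P25 and at 14.98, 18.1 and 13.1 FPKM at P49. P25 replicate 2 was the highest of its group and still well below P49. The difference was 2.91 ± 0.40 (adjusted p = 0.00197), and 3.49 ± 0.25 without P25 replicate 2 (adjusted p = 4.31e-05). C6, which binds just before C7 in the same complex, was at 1.68, 2.70 and 1.19 FPKM at P25 and at 9.50, 12.9 and 11.7 FPKM at P49 (2.14 ± 0.23, adjusted p = 0.000447). Both rises were robust. Of 19 genes of a complement and acute phase list, which did not hold C6 or C7, 3 rose with all libraries (C4b, Lrg1 and C2) and 0 fell. The early components C4b and C2 rose by 1.02 and 0.66, with calls lost without any one of 4 libraries (P25 replicate 3 and each P49 library, adjusted p up to 0.0974 and 0.119). Lrg1, an acute phase glycoprotein, rose by 0.87 with all libraries, a call lost without any one of 11 libraries (adjusted p up to 0.144, and 0.0682 without P25 replicate 2). Without that library 6 of 19 rose, among them C1s1 and C1ra, and 1 fell, Cp, which encodes the ferroxidase ceruloplasmin. Among all genes 3.49% rose with all libraries, and 7.05% rose and 8.21% fell without P25 replicate 2.

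**Figure D2:**
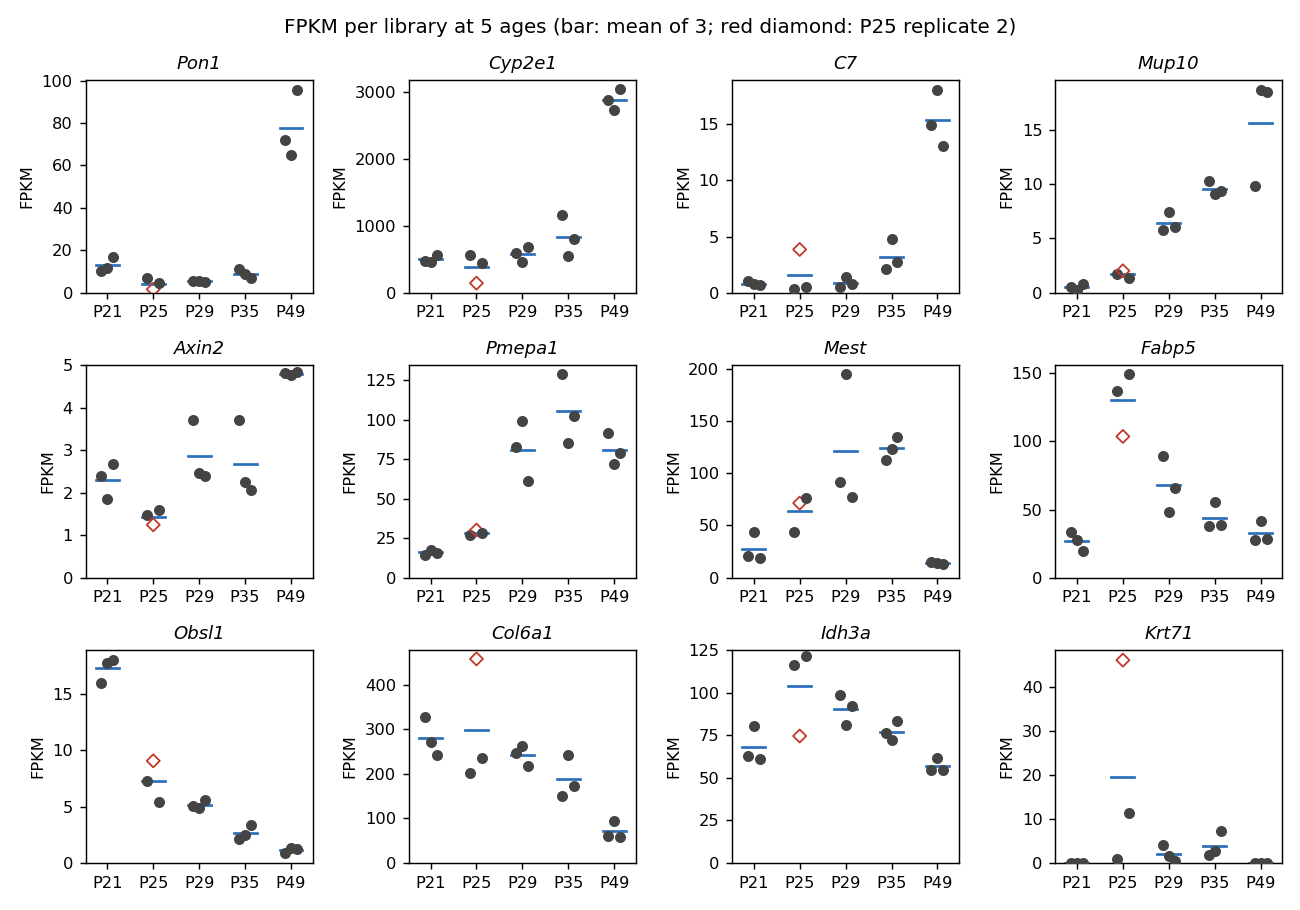
FPKM (y axis) of 12 genes in each of the 15 libraries by age (x axis), with the mean of 3 libraries as a bar and P25 replicate 2 as an open red diamond. Pon1, Cyp2e1 and C7 stand apart at P49, Mup10 climbs through P29 and P35, Pmepa1 and Fabp5 change mostly before P49, and Krt71 is above 40 FPKM in P25 replicate 2 alone.

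Several of the named genes are known from immune cells. Mmp12, the macrophage metalloelastase, was at 0.857, 2.88 and 1.14 FPKM at P25 and at 12.5, 12.7 and 10.3 FPKM at P49 (2.36 ± 0.37, adjusted p = 0.00466, robust). Ifi27l2a, an interferon-inducible mitochondrial gene, was at 667, 414 and 482 FPKM at P25 and at 2231, 1974 and 1916 FPKM at P49 (1.99 ± 0.27, adjusted p = 0.00194, robust). For both genes every P49 library exceeded every P25 library. Il10, an anti-inflammatory cytokine, was at 7.74, 15.4 and 5.03 FPKM at P25 and at 50.5, 32.7 and 25.7 FPKM at P49 (1.91 ± 0.40, adjusted p = 0.0156, but 0.0581 without P25 replicate 3 and 0.0738 without P49 replicate 1). Cd74, the invariant chain that escorts class II antigen-presenting molecules, was at 69.9, 203 and 71.4 FPKM at P25 and at 437, 317 and 374 FPKM at P49. H2-Aa, a class II chain, was at 35.1, 92.4 and 29.2 FPKM at P25 and at 189, 141 and 152 FPKM at P49. The difference of Cd74 was 1.88 with all libraries and 2.38 ± 0.38 without P25 replicate 2 (adjusted p = 0.00276), and that of H2-Aa 1.78 and 2.28 ± 0.37 (adjusted p = 0.00302). With all libraries both calls were lost without any one of P25 replicates 1 and 3 and the P49 libraries (adjusted p up to 0.103 and 0.117). The chemokine Ccl8 and the interleukin 1 receptor antagonist Il1rn passed without P25 replicate 2 (2.39 and 2.31, adjusted p = 0.00222 and 0.00273) and not with it (adjusted p = 0.0614 and 0.075). In both P25 replicate 2 stood near P49, at 98.5 FPKM for Ccl8 against 119 to 134 at P49 and at 12.0 FPKM for Il1rn against 13.3 to 15.6.

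Of 18 markers of macrophages and monocytes 17 were tested. All 17 differences were above 0 in both fits, with a median of 0.43 with all libraries and 0.87 without P25 replicate 2. With all libraries 1 of 17 passed, Cd14 (1.53), against 3.49% of all genes higher. Without P25 replicate 2 Cd14, Lyz2 and Itgam did, against 7.05%, and the calls of Lyz2 and Itgam were lost without any one of 4 and 3 further libraries (adjusted p up to 0.185 and 0.143). Cd14, a receptor for bacterial lipopolysaccharide, was at 23.6, 65.6 and 20.7 FPKM at P25 and at 107, 91.2 and 84.8 FPKM at P49 (adjusted p = 0.0328, up to 0.118 with 1 library left out, and 0.00121 without P25 replicate 2). Lyz2, the lysozyme of macrophages, was at 157, 458 and 137 FPKM at P25 and at 458, 331 and 358 FPKM at P49, so that the groups overlapped through P25 replicate 2. The scavenger receptor Cd163 was at 25.3, 57.0 and 14.1 FPKM at P25 and at 32.0, 23.3 and 31.8 FPKM at P49 and did not pass. The part of macrophage RNA in the rises of Mmp12, Il10, Cd74 and H2-Aa was not tested. Of 6 lymphocyte markers tested, 0 passed with all libraries and Ptprc rose without P25 replicate 2 (adjusted p = 0.0383). The other 12 of 18, Cd3e and Cd8a among them, did not reach the level for testing.

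Among the falls, Fabp5 (ENSMUSG00000027533, chromosome 3, 10012548 to 10016607), a fatty acid carrier of skin and adipose tissue, was robust. It stood at 137, 104 and 149 FPKM at P25 and at 28.0, 41.4 and 28.6 FPKM at P49. No P49 library came near the P25 libraries. The difference was -1.97 ± 0.26 (adjusted p = 0.00192), and -2.12 ± 0.27 without P25 replicate 2 (adjusted p = 0.00104). At P21 Fabp5 averaged 27.0 FPKM, at P29 67.7 and at P35 44.0, so that P25 was the high age. Mest, an imprinted gene whose level tracks fat mass expansion, was at 43.4, 71.4 and 75.9 FPKM at P25 and at 15.05, 14.5 and 13.1 FPKM at P49 (-2.05 ± 0.35, adjusted p = 0.00716, robust). In contrast to Fabp5, Mest was higher still at P29 and P35, with means of 121 and 124 FPKM, and dropped between P35 and P49. Obsl1, a cytoskeletal adaptor protein, was at 7.28, 9.08 and 5.41 FPKM at P25 and at 0.870, 1.30 and 1.20 FPKM at P49 (-1.94 ± 0.16, adjusted p = 6.24e-05, robust). Its means descended over all 5 ages, from 17.3 FPKM at P21 through 5.17 at P29 and 2.66 at P35.

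Adam12, a membrane protease and marker of growing adipose tissue, was at 10.3, 13.6 and 10.9 FPKM at P25 and at 2.84, 2.95 and 2.87 FPKM at P49 (-1.69 ± 0.14, adjusted p = 8.44e-05, robust). Parm1, a mucin-like membrane protein, was at 17.0, 12.0 and 21.9 FPKM at P25 and at 4.05, 6.18 and 4.28 FPKM at P49 (-1.60 ± 0.25, adjusted p = 0.00393, robust). Klb, which encodes beta-klotho, the co-receptor of fibroblast growth factor 21, was at 15.7, 8.78 and 23.7 FPKM at P25 and at 4.82, 5.27 and 6.22 FPKM at P49. Its difference was -1.31 ± 0.26 (adjusted p = 0.0125, but 0.0552 without P49 replicate 1), and -1.66 ± 0.18 without P25 replicate 2. In each of these 3 genes the P25 and P49 libraries did not overlap. Ppp1r3b, a glycogen-targeting subunit of protein phosphatase 1, was at 7.07, 15.9 and 19.6 FPKM at P25 and at 3.62, 3.55 and 2.38 FPKM at P49 (-1.77 ± 0.41, adjusted p = 0.0266). Its call was lost without any one of P25 replicate 3 and the P49 libraries, with an adjusted p of up to 0.104.

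Many extracellular matrix genes fell. Of 34 tested, 12 fell with all libraries and 0 rose, against 3.11% and 3.49% of all genes, and the median was -0.73. With P25 replicate 2 left out the same 12 fell, Lox rose, and the median was -0.31. The 12 were the collagen VI chains Col6a1, Col6a2 and Col6a3, the collagen V chains Col5a1 and Col5a3, Col4a2, Col15a1, the basement membrane linkers Nid1, Nid2 and Lamb1, the elastin cross-linker Loxl1, and Postn. Every P49 library lay below every P25 library for 15 of the 34 genes, all 12 called ones included, against 13.2% of all genes. The calls of Col6a3, Col5a1, Lamb1 and Col4a2 were lost without any one of 13, 9, 8 and 3 of the libraries (adjusted p up to 0.146, 0.131, 0.151 and 0.0699).

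Collagen VI forms a beaded microfibril network around adipocytes. Col6a1 (ENSMUSG00000001119, chromosome 10, 76708792 to 76726168) was at 202, 459 and 235 FPKM at P25 and at 60.0, 93.3 and 58.7 FPKM at P49 (-2.00 ± 0.29, adjusted p = 0.00271). Its neighbour Col6a2 was at 148, 377 and 163 FPKM at P25 and at 50.1, 75.3 and 49.5 FPKM at P49 (-1.85 ± 0.31, adjusted p = 0.00661). P25 replicate 2 was the highest library for both, and without it the differences were -1.64 ± 0.23 and -1.42 ± 0.22, still called. Both falls were robust, and in both genes most of the difference came after P35. Other matrix genes, in which P25 replicate 2 did not stand out, fell as well. Col15a1, a collagen of the outer basement membrane, was at 227, 237 and 236 FPKM at P25 and at 89.5, 106 and 97.1 FPKM at P49 (-1.25 ± 0.15, adjusted p = 0.00102, robust). Col5a3, a collagen V chain, was at 229, 209.7 and 269.9 FPKM at P25 and at 77.4, 99.9 and 94.3 FPKM at P49 (-1.37 ± 0.19, adjusted p = 0.00197, robust). Nid2, which links laminin to collagen IV, was at 105, 91.6 and 129 FPKM at P25 and at 37.0, 42.1 and 42.5 FPKM at P49 (-1.39 ± 0.17, adjusted p = 0.00108, robust). Nid1 fell by 0.62 and Loxl1 by 1.35 on the log2 scale, also robust.

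The type I and III collagen genes Col1a1, Col1a2 and Col3a1 gave no call in either fit. Col1a1, the main chain of type I collagen, was at 549, 5160.0 and 771 FPKM at P25 and at 349, 580.0 and 213 FPKM at P49. The groups overlapped, and P25 replicate 2 was the highest of the 6 libraries by far. The difference was -1.88 (95% interval -3.41 to -0.36, adjusted p = 0.129) with all libraries and -0.89 (-1.92 to 0.14, adjusted p = 0.229) without P25 replicate 2. Postn, a matricellular protein of wounds and fibroblasts, was at 50.2, 375 and 62.2 FPKM at P25 and at 17.1, 23.3 and 11.5 FPKM at P49 (-2.60 ± 0.64, adjusted p = 0.0325). Its call was lost without any one P49 library (adjusted p up to 0.123), and without P25 replicate 2 the difference was -1.69 (adjusted p = 0.0206). Postn was among the 15 largest falls with no overlap, as were Lrrc15 and Lepr. Of these 15, all but Mest, Fabp5 and Ppp1r3b were highest in P25 replicate 2 among the 6 libraries. Lrrc15, a membrane protein of activated fibroblasts, was at 2.001, 27.3 and 3.60 FPKM at P25 and at 0.207, 0.239 and 0.113 FPKM at P49. Lepr, the leptin receptor, was at 3.24, 26.3 and 4.36 FPKM at P25 and at 0.671, 0.760 and 0.546 FPKM at P49. Without P25 replicate 2 their differences moved from -2.62 to -1.65 (Lrrc15) and from -2.36 to -1.53 (Lepr), with adjusted p of 0.00188 and 0.0065. With all libraries both calls were lost without any one P49 library (adjusted p up to 0.086 and 0.0883). Of 20 preadipocyte and fibroblast markers 0 passed with all libraries (median -0.27), and without P25 replicate 2 Pi16 and Dpp4, markers of fibroblast progenitors, rose (median 0.18). Of all genes 7.05% rose in that fit, so that the 2 calls describe single genes and not the list. With P25 replicate 3 left out too both calls were lost, and that of Dpp4 also without P25 replicate 1 or P49 replicate 2. Pi16 was at 4.74, 37.7 and 4.33 FPKM at P25 and at 21.5, 26.4 and 21.6 FPKM at P49.

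Proteins that process matrix moved in both directions. Of 23 genes tested, 3 rose in both fits, among them Mmp12 and Mmp19, and Serpinh1, Adamts12 and Mmp15 fell. The shares of all genes were 3.49% higher and 3.11% lower with all libraries, and 7.05% and 8.21% without P25 replicate 2. The calls of Mmp19 and Mmp15 were lost without any one of 4 and 3 libraries (adjusted p up to 0.0766 and 0.0865). Adamts12, a secreted metalloprotease, was at 13.8, 25.6 and 14.1 FPKM at P25 and at 6.998, 7.53 and 8.27 FPKM at P49 (-1.08 ± 0.18, adjusted p = 0.00667, robust). Serpinh1, the collagen chaperone HSP47, was at 268, 632 and 339.6 FPKM at P25 and at 162, 188 and 176 FPKM at P49 (-1.14 ± 0.26, adjusted p = 0.0241, but up to 0.0914 without any one P49 library). The groups of Adamts12 and Serpinh1 did not overlap. Lox, the lysyl oxidase that cross-links collagen, overlapped with all libraries (adjusted p = 0.22) and rose without P25 replicate 2, by 1.08 ± 0.19 (adjusted p = 0.00372, but 0.0614 with P25 replicate 3 left out too). Timp2, an inhibitor of metalloproteinases, also rose in that fit (1.34, adjusted p = 0.0265, up to 0.179 with 1 of 4 further libraries left out).

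Sterol synthesis builds cholesterol from acetyl-CoA through mevalonate, farnesyl diphosphate and squalene, under control of the SREBP2 transcription factor and its anchor protein Insig1. Of 25 genes tested, 6 fell with all libraries, 10 fell without P25 replicate 2 and 0 rose in either fit, against 3.11% and 8.21% of all genes lower. The median was -0.46 in both, and 24 of 25 were below 0. Among the 6 were Mvd and Idi1, which act on mevalonate and its products, Sqle, which oxidises squalene, Hsd17b7, of the late steps, and Insig1. P25 replicate 2 did not stand apart for this list. Its median level relative to the P49 mean was 0.45 on the log2 scale, between 0.30 and 0.71 in P25 replicates 1 and 3. The list median was -0.48, -0.56 and -0.64 at P21, 0.0024, -0.42 and -0.27 at P29, and -0.21, 0.08 and -0.40 at P35. For this list P25 was thus the high age, and P49 was not the low one.

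The part of these promoters nearest the start site is shown for 3 of the genes that fell, because they share a short element. The sequences are the 160 bases before the RefSeq start (GRCm38.p6), written 5′ to 3′ on the gene's strand. Capitals mark CCAAT or its reverse complement ATTGG, the letters bound by the NF-Y complex. Mvd lies at chr8:122443423-122443582 on the minus strand, Idi1 at chr13:8885446-8885605 on the plus strand and Hsd17b7 at chr1:169969206-169969365 on the minus strand.
Mvd: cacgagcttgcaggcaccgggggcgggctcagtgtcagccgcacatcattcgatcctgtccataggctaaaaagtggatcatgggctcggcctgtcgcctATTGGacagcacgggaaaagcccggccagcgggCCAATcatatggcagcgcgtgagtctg
Idi1: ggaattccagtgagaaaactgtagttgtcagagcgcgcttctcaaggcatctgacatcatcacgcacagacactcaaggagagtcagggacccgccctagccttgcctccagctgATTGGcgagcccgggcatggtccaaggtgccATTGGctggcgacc
Hsd17b7: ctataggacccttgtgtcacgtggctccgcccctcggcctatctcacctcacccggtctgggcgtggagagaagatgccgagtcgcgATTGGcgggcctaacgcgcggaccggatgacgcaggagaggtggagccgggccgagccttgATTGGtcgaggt
Each holds 2 such elements in these 160 bases. Of the 25 sterol genes 18 matched a RefSeq promoter by symbol, and 17 of the 18 held CCAAT on either strand in the 250 bases before the start, against 37.5% of all 27025 genes with a promoter. The share was 8 of 23 for oxidative phosphorylation genes and 8 of 21 for matrix genes. In all 7 motifs were searched in 4 gene lists, and this one is shown because of its count. The 8-letter core of the sterol regulatory element, CACCCCAC, was in 2 of the 18 promoters (2.98% of all genes) and the E-box CACGTG in 4 (6.86%). A match of letters is a description of the sequence and no evidence of binding.

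Hsd17b7, which acts late in the pathway, was the robust call. It was at 3.51, 4.16 and 3.98 FPKM at P25 and at 1.996, 2.05 and 2.07 FPKM at P49 (-0.68 ± 0.11, adjusted p = 0.00393). Mvd, the mevalonate diphosphate decarboxylase, was at 14.7, 13.0 and 26.2 FPKM at P25 and at 7.17, 7.69 and 7.07 FPKM at P49 (-1.13 ± 0.30, adjusted p = 0.0442, up to 0.131 with 1 of 10 libraries left out). Insig1, which holds SREBP proteins in the endoplasmic reticulum, was at 232, 241 and 330.4 FPKM at P25 and at 162, 147 and 155 FPKM at P49 (-0.77 ± 0.18, adjusted p = 0.0249, up to 0.0867 with 1 of 4 left out). Sqle, squalene epoxidase, was at 4.99, 6.81 and 6.77 FPKM at P25 and at 2.78, 3.11 and 3.67 FPKM at P49 (-0.77 ± 0.19, adjusted p = 0.0293, up to 0.115 with 1 of 4 left out). In these genes no P49 library reached a P25 library, as for 13 of the 25 genes and 13.2% of all genes. The call of Idi1 was lost without any one of P25 replicate 3 and P49 replicates 1 and 2 (adjusted p up to 0.137).

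De novo fatty acid synthesis gave no call with all libraries. Of 19 genes, 0 passed and the median was -0.44. In the fit without P25 replicate 2, 7 fell, against 8.21% of all genes, and the median was -0.68. The 7 were Acly, Me1, Tkt, Acacb, Pgd, Thrsp and Fads1. Acly, the ATP citrate lyase, was at 423, 334 and 677 FPKM at P25 and at 135, 258 and 156 FPKM at P49. Its groups did not overlap, but the adjusted p was 0.063 with all libraries, 0.0296 without P25 replicate 2, and up to 0.249 with 1 further library left out (P25 replicate 1 or 3, or P49 replicate 1 or 3). Me1, the malic enzyme, was at 359.6, 308 and 534 FPKM at P25 and at 150.3, 232 and 173 FPKM at P49 (adjusted p = 0.0647 and 0.0324). Fasn, the fatty acid synthase itself, was at 1821, 1193 and 2533 FPKM at P25 and at 977, 1254 and 1021 FPKM at P49, and the groups overlapped (adjusted p = 0.26 and 0.0897). Scd1, the desaturase that makes oleate, lay the other way, at 5586, 4132 and 7018 FPKM at P25 and at 7949.6, 8571 and 7992 FPKM at P49. Its groups did not overlap, with P49 higher, but the difference of 0.58 (95% interval 0.04 to 1.12) did not pass (adjusted p = 0.18). Acaca, which makes malonyl-CoA, was at 212, 122 and 271 FPKM at P25 and at 129.6, 149 and 146 FPKM at P49, with overlap (adjusted p = 0.384 and 0.0566). The regulators Srebf1 and Mlxipl overlapped between ages and did not pass.

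Triglyceride assembly, storage and release changed in single genes. Of 13 synthesis genes Agpat2 fell and Mogat1 rose, in both fits. Agpat2, which makes phosphatidic acid and is lost in a form of lipodystrophy, was at 533, 382 and 697 FPKM at P25 and at 287, 289 and 284 FPKM at P49 (-0.86 ± 0.20, adjusted p = 0.0257). Its call was lost without any one of P25 replicate 3 and the P49 libraries (adjusted p up to 0.0881), and stood at 0.00228 without P25 replicate 2. Mogat1, a monoacylglycerol acyltransferase, was at 2.58, 2.27 and 3.10 FPKM at P25 and at 6.33, 6.02 and 7.13 FPKM at P49 (1.04 ± 0.14, adjusted p = 0.00197, robust). Of 16 genes of fatty acid uptake and lipid droplets, Angptl4, an inhibitor of lipoprotein lipase, rose from 143, 129 and 115 FPKM to 235, 270.4 and 238 FPKM (0.94 ± 0.15, adjusted p = 0.00416, robust). Plin5, a droplet coat protein of oxidative cells, rose from 4.18, 2.75 and 3.25 FPKM to 7.17, 6.44 and 8.04 FPKM (0.91 ± 0.16, adjusted p = 0.0067, robust). Fabp5, described above, was the 1 fall of that list with all libraries. Without P25 replicate 2 the list gave 2 rises and 6 falls, Fabp5, Lpl, Cd36, Slc27a4, Acsl1 and Plin3. In both rises P49 lay above P25 in every library. Of 18 lipolysis genes 0 passed with all libraries and 6 fell without P25 replicate 2, among them the beta-3 adrenergic receptor Adrb3. It was at 134, 52.4 and 148 FPKM at P25 and at 73.3, 68.3 and 81.5 FPKM at P49 (-0.92 without P25 replicate 2, adjusted p = 0.0185, but up to 0.151 with P25 replicate 1 or 3 or P49 replicate 1 or 2 left out too). The lipases Lipe and Pnpla2 did not pass in either fit. Of 20 fatty acid oxidation genes 0 passed with all libraries and Etfdh fell without P25 replicate 2. Among all genes 3.49% rose and 3.11% fell with all libraries, and 7.05% and 8.21% without P25 replicate 2.

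Of 20 genes of insulin signalling and glucose handling, the glucose transporters Slc2a1 and Slc2a3 and hexokinase 2 (Hk2) rose, and Ppp1r3b fell, in both fits. Hk2 was at 61.9, 48.2 and 56.4 FPKM at P25 and at 86.3, 84.1 and 83.6 FPKM at P49 (0.61 ± 0.10, adjusted p = 0.00526, robust). Slc2a1, the GLUT1 transporter, was at 8.35, 13.3 and 7.27 FPKM at P25 and at 18.95, 24.1 and 18.9 FPKM at P49 (1.06 ± 0.24, adjusted p = 0.0243). The 2 groups of each gene did not overlap. The calls of Slc2a1 and Slc2a3 (0.91) were lost without 5 and 3 of the libraries (adjusted p up to 0.0908 and 0.0725), P25 replicate 2 not among them. Of 18 glycolysis and hypoxia genes Aldoa and Pgk1 fell with all libraries, and 7 fell and 1 rose without P25 replicate 2. The shares of all genes were 3.49% higher and 3.11% lower with all libraries, and 7.05% and 8.21% without P25 replicate 2. Aldoa, the aldolase of glycolysis, was at 1331, 963 and 1610.5 FPKM at P25 and at 706, 856 and 767 FPKM at P49 (-0.72 ± 0.19, adjusted p = 0.0464, up to 0.157 with 1 of 12 libraries left out). Without P25 replicate 2 its difference was -0.92 (adjusted p = 0.00519).

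Mitochondrial genes were called mostly in the fit without P25 replicate 2. Of 32 subunits of oxidative phosphorylation, 3 fell with all libraries (Cycs, Atp5o and Cox7b) and 27 without P25 replicate 2, against 3.11% and 8.21% of all genes, and 0 rose in either. The calls of Atp5o and Cox7b were lost without any one of 5 and 14 of the libraries (adjusted p up to 0.0881 and 0.152). The median was -0.31 and -0.48, and all 32 were below 0 in both fits. Of 18 genes of the TCA cycle and pyruvate dehydrogenase, 2 fell with all libraries (Idh3a and Dlat) and 14 without P25 replicate 2, with a median of -0.28 and -0.52. The call of Dlat was lost without any one of 6 libraries (adjusted p up to 0.119). The 2 P25 libraries kept and the 3 P49 libraries did not overlap for 32 of 32 and 17 of 18 genes, all with P49 lower, against 27.5% of all genes. With P25 replicate 2 included that held for 8 of 32 and 5 of 18, against 13.2%. The median level of the oxidative phosphorylation list relative to the P49 mean was 0.47 and 0.50 (log2) in P25 replicates 1 and 3 and -0.06 in P25 replicate 2.

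Idh3a, a subunit of the NAD-dependent isocitrate dehydrogenase, was at 116, 74.6 and 122 FPKM at P25 and at 54.8, 61.4 and 54.9 FPKM at P49. P25 replicate 2 lay nearest to P49, but the groups did not overlap. The difference was -0.83 ± 0.17 (adjusted p = 0.0136, up to 0.0608 without P25 replicate 3 or P49 replicate 1 or 3), and -1.05 ± 0.12 without P25 replicate 2 (adjusted p = 0.000501). Cycs, cytochrome c, was at 45.0, 34.2 and 52.1 FPKM at P25 and at 21.98, 25.3 and 25.5 FPKM at P49 (-0.81 ± 0.16, adjusted p = 0.0115, but 0.0535 without P49 replicate 1). Ndufs1, the largest subunit of complex I, shows the pattern of the members called in the second fit. It was at 56.7, 35.4 and 53.7 FPKM at P25 and at 36.9, 34.1 and 36.5 FPKM at P49, with an adjusted p of 0.134 with all libraries and 0.00378 without P25 replicate 2. The same holds for Mdh1, the cytosolic malate dehydrogenase of the list, at 336, 209 and 363 FPKM at P25 and at 190.1, 197 and 195 FPKM at P49 (adjusted p = 0.0687 and 0.0018). Citrate synthase (Cs) overlapped with all libraries, at 219, 142 and 245 FPKM at P25 and at 148, 163 and 164 FPKM at P49 (adjusted p = 0.283 and 0.00707, but 0.101 with P25 replicate 3 left out as well). Among 7 thermogenic genes tested, Cox7a1, a cytochrome oxidase subunit of muscle and brown fat, fell from 9.86, 11.3 and 12.7 FPKM to 3.02, 3.38 and 5.12 FPKM (-1.36 ± 0.29, adjusted p = 0.0174, up to 0.0761 with P25 replicate 3 or P49 replicate 1 or 2 left out). Ucp1, Prdm16 and Dio2 did not reach the level for testing.

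**Figure D3:**
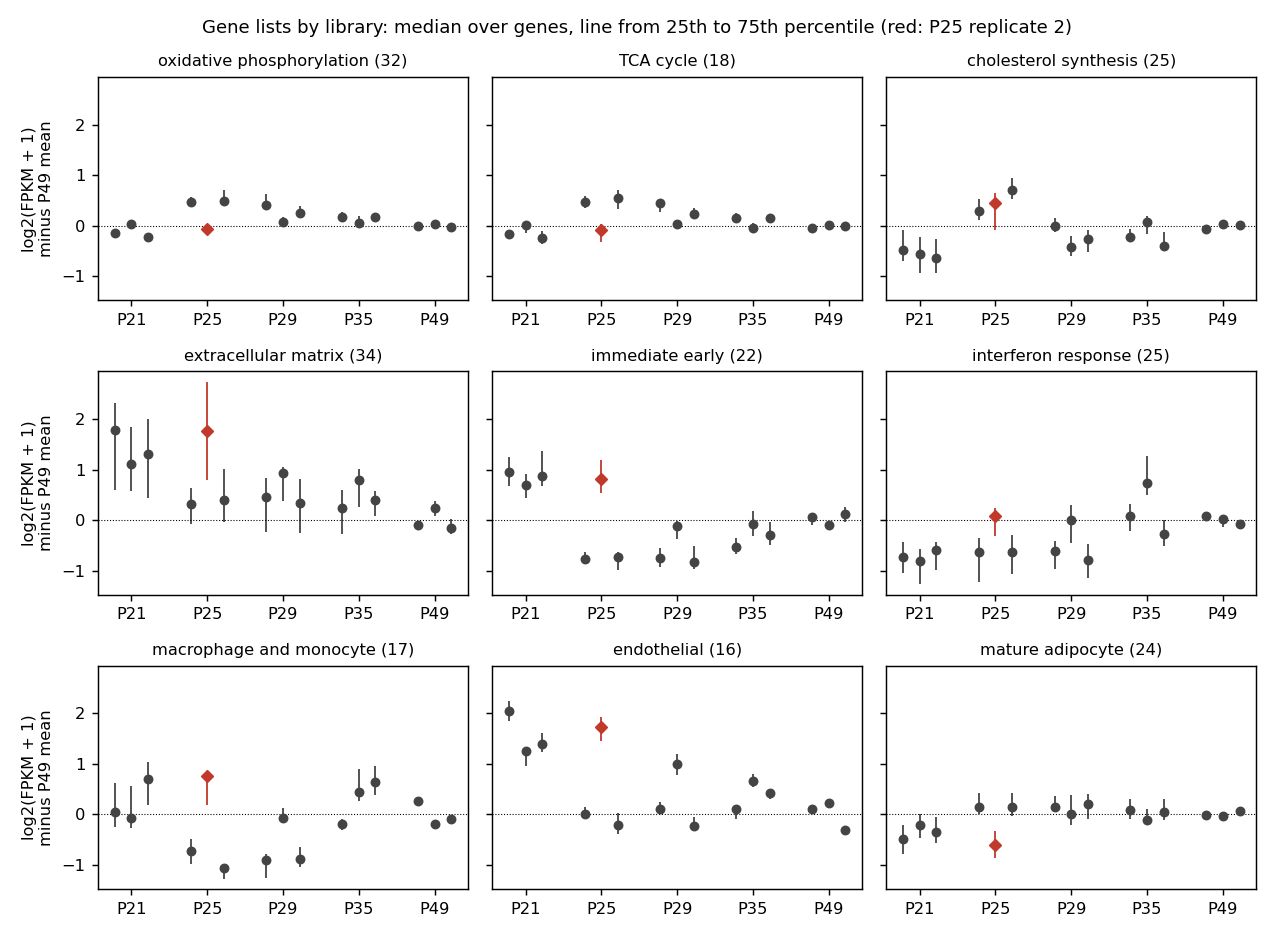
Median over the genes of 9 lists in each library (y axis, log2(FPKM + 1) minus the P49 mean of each gene; lines from the 25th to the 75th percentile over genes) by age (x axis), with P25 replicate 2 in red. P25 replicates 1 and 3 lie above P49 for oxidative phosphorylation (0.47 and 0.50) and below it for immediate early genes (-0.78 and -0.73), while P25 replicate 2 lies at -0.06 and 0.81.

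Genes that define the mature adipocyte gave no call with all libraries. Of 24 markers 0 passed, with a median of 0.17, and without P25 replicate 2 Cebpb rose and 8 fell, with a median of -0.12. The shares of all genes without P25 replicate 2 were 7.05% higher and 8.21% lower. Adipoq, which encodes adiponectin, was at 2658, 1406 and 2576 FPKM at P25 and at 2480.3, 2437 and 2554 FPKM at P49. P25 replicate 2 was the low library. The difference was 0.23 (95% interval -0.21 to 0.67) with all libraries and -0.07 (-0.32 to 0.17) without P25 replicate 2. Plin1, the main droplet coat protein, was at 1301, 677 and 1269.9 FPKM at P25 and at 1304, 1255 and 1396 FPKM at P49 (0.34, interval -0.09 to 0.78, and 0.04, interval -0.18 to 0.25). Lep, which encodes leptin, was at 254, 150.1 and 255 FPKM at P25 and at 290.3, 226 and 286 FPKM at P49 (0.31, interval -0.20 to 0.83, and 0.06, interval -0.40 to 0.53). The 8 that fell without P25 replicate 2 were Adrb3, Gpd1, Retn, Adig, Lpl, Cd36, Pparg and Fabp4. Gpd1, which makes glycerol 3-phosphate, was at 860.2, 487 and 932 FPKM at P25 and at 454, 476 and 493 FPKM at P49 (-0.92 ± 0.13, adjusted p = 0.0015 without P25 replicate 2, 0.0898 with it). Pparg, the master regulator of adipocytes, was at 159, 102 and 166 FPKM at P25 and at 124, 130.2 and 125 FPKM at P49 (-0.36, adjusted p = 0.0379 without P25 replicate 2, up to 0.225 with 1 of 7 further libraries left out, and 0.639 with all libraries).

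Of 19 secreted adipokines 5 rose and 0 fell with all libraries, against 3.49% and 3.11% of all genes, with a median of 0.58. Among them, besides Angptl4, were Rarres2, Tnf and Nampt. Rarres2, which encodes the chemoattractant chemerin, was at 86.1, 71.2 and 77.5 FPKM at P25 and at 144, 145 and 129.97 FPKM at P49 (0.83 ± 0.16, adjusted p = 0.0105, robust). It averaged 130.2 FPKM at P21 and 156 at P29, so that P25 was again the low age. Tnf, the inflammatory cytokine, was at 16.0, 30.2 and 11.5 FPKM at P25 and at 50.3, 44.2 and 32.9 FPKM at P49 (1.19 ± 0.31, adjusted p = 0.0395, up to 0.144 with 1 of 10 libraries left out). Nampt, the enzyme of NAD salvage also called visfatin, rose by 0.58 with all libraries, a call lost without any one of 12 libraries (adjusted p up to 0.157, and 0.0654 without P25 replicate 2). Without that library Ccl2 and Retnla rose and Agt and Retn fell as well. Agt, angiotensinogen, was at 231, 90.5 and 175 FPKM at P25 and at 92.6, 98.9 and 108 FPKM at P49 (-1.01 ± 0.15, adjusted p = 0.00174 without P25 replicate 2, 0.163 with it).

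Some targets of glucocorticoids, the adrenal steroids that also act on adipocytes, rose. Of 17 tested, 5 rose and 0 fell with all libraries (median 0.45), and 9 rose and 0 fell without P25 replicate 2 (median 0.77). Of all genes 3.49% and 7.05% rose. The metallothioneins, small metal-binding proteins that glucocorticoids and zinc induce, were the robust calls. Mt1 was at 1019, 1051 and 645 FPKM at P25 and at 2348, 2179 and 2288 FPKM at P49 (1.36 ± 0.23, adjusted p = 0.00596). Mt2 was at 708, 887 and 442 FPKM at P25 and at 2028, 1787 and 1912 FPKM at P49 (1.55 ± 0.27, adjusted p = 0.00829). In both genes the lowest P49 library was well above the highest P25 library. Fkbp5, a chaperone of the glucocorticoid receptor, was at 35.1, 24.1 and 16.4 FPKM at P25 and at 66.6, 49.5 and 69.9 FPKM at P49 (1.31 ± 0.36, adjusted p = 0.0485, and 0.0506 without P25 replicate 2). Klf9 rose by 0.49 and Tsc22d3, also known as GILZ, by 0.74. The calls of Fkbp5, Klf9 and Tsc22d3 were lost without 10, 3 and 12 of the libraries (adjusted p up to 0.157, 0.0645 and 0.171), and Tsc22d3 overlapped between ages. The hours of the day at which tissue was taken are not given in the sources used here. Of 18 clock genes Cry2 rose with all libraries (0.54, adjusted p = 0.0157, up to 0.0672 without P25 replicate 3 or P49 replicate 1 or 2), and Per1, Nfil3 and Ciart joined it without P25 replicate 2.

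Among signals that pass between fat cells and follicles, changes were few. Of 27 hair cycle signals tested, Pdgfc and Chrd rose and Nog fell, in both fits. Among all genes 3.49% rose and 3.11% fell with all libraries, and 7.05% and 8.21% without P25 replicate 2. These few calls describe single genes and not the list. Pdgfc, a platelet-derived growth factor, was at 4.96, 4.26 and 4.24 FPKM at P25 and at 8.85, 7.73 and 8.23 FPKM at P49 (0.76 ± 0.12, adjusted p = 0.00512, robust). Chrd, chordin, an extracellular antagonist of bone morphogenetic proteins, was at 3.95, 3.11 and 4.01 FPKM at P25 and at 6.07, 6.37 and 7.08 FPKM at P49 (0.68 ± 0.09, adjusted p = 0.00194, robust). Nog, noggin, another antagonist of the same proteins, moved the other way, from 13.8, 12.1 and 24.8 FPKM to 6.90, 8.62 and 7.30 FPKM (-0.997 ± 0.27, adjusted p = 0.0442, up to 0.144 with 1 of 10 libraries left out). The groups did not overlap in any of the 3. Igf1 and Fgf10 fell too without P25 replicate 2 (-0.54 and -0.44). Shh, Wnt10b and Fgf5 did not reach the level for testing.

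Of 12 Wnt and Hedgehog targets tested, Axin2 rose in both fits, as the 1 call with all libraries, against 3.49% of all genes higher. Without P25 replicate 2 the list gave 2 rises, Axin2 among them, and 2 falls, against 7.05% and 8.21% of all genes. Axin2, a feedback inhibitor that canonical Wnt signalling induces, was at 1.48, 1.25 and 1.58 FPKM at P25 and at 4.82, 4.76 and 4.83 FPKM at P49, from 145 to 181 reads per P25 library and 486 to 585 per P49 library (1.25 ± 0.17, adjusted p = 0.00194, robust). The 2 groups were tight and far apart. The Hedgehog targets Gli1 and Hhip lay lower at P49. Gli1 was at 0.903, 13.5 and 2.28 FPKM at P25 and at 0.115, 0.271 and 0.269 FPKM at P49. Hhip was at 0.700, 6.09 and 0.964 FPKM at P25 and at 0.0277, 0.0780 and 0.0307 FPKM at P49, where it rested on 3 to 9 reads. Both did not pass with all libraries (adjusted p = 0.0633 and 0.0625) and fell without P25 replicate 2 (-1.04 and -0.81, adjusted p = 0.0443 and 0.0408, up to 0.367 and 0.254 with 1 of 8 or 7 further libraries left out).

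Transforming growth factor beta targets gave a clear rise in Pmepa1, an inhibitor of that pathway which the pathway itself induces. Pmepa1 was at 27.0, 30.2 and 28.3 FPKM at P25 and at 91.9, 72.1 and 78.9 FPKM at P49 (1.47 ± 0.17, adjusted p = 0.00102, robust). It had reached 81.2 FPKM at P29 and 106 at P35, so that the rise preceded P49. Inhbb, the activin B subunit, was at 20.9, 12.3 and 17.4 FPKM at P25 and at 33.4, 30.2 and 30.4 FPKM at P49 (0.89 ± 0.17, adjusted p = 0.0114, but 0.0511 without P49 replicate 1). The P49 libraries of both genes lay above those at P25. In all, 2 of 22 genes of this list rose with all libraries and 5 without P25 replicate 2, adding Smad7, Skil and Smad3, with 0 falls. Of 18 angiogenesis genes Angptl4 and Fgf2 rose in both fits. Beside both lists, 3.49% of all genes rose with all libraries and 7.05% without P25 replicate 2. Fgf2, basic fibroblast growth factor, was at 8.09, 4.75 and 6.27 FPKM at P25 and at 13.8, 11.3 and 11.7 FPKM at P49 (0.87 ± 0.15, adjusted p = 0.0067, robust). Of 19 genes of the insulin-like growth factor axis 0 passed with all libraries, and without P25 replicate 2 Igfbp6 and Irs2 rose and Igf1 and Ghr fell.

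A list of interferon-stimulated genes, which did not hold Ifi27l2a, gave no call with all libraries (0 of 25, although 24 of 25 were above 0, median 0.51) and 6 rises without P25 replicate 2 (median 0.64). The 6 were Rsad2, Ifit2, Ifit1, Isg15, Mx1 and Mx2, which inhibit the replication of viruses. The share of all genes that rose without P25 replicate 2 was 7.05%. Ifit1 was at 8.36, 39.5 and 8.83 FPKM at P25 and at 39.1, 30.9 and 43.6 FPKM at P49. Rsad2, viperin, was at 11.8, 59.4 and 10.4 FPKM at P25 and at 57.3, 40.2 and 67.8 FPKM at P49. Isg15, a ubiquitin-like modifier, was at 11.2, 54.3 and 16.1 FPKM at P25 and at 47.7, 39.0 and 46.6 FPKM at P49. In all 3 genes P25 replicates 1 and 3 were low and P25 replicate 2 lay within or above the P49 range. Without that library the differences were 2.01 ± 0.39 for Ifit1 (adjusted p = 0.00655), 2.19 ± 0.41 for Rsad2 (adjusted p = 0.00582) and 1.65 ± 0.45 for Isg15 (adjusted p = 0.0294). With P25 replicate 3 left out too, which leaves 1 library at P25, the calls of Ifit1, Rsad2 and Isg15 were lost. That of Isg15 was also lost without P25 replicate 1 or any one P49 library.

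These 3 promoters hold letters that match the interferon-stimulated response element close to the start site, which is why they are shown. The 160 bases before the RefSeq start (GRCm38.p6) are written as above, with GAAA, any 2 bases and GAAA again in capitals, or the reverse complement of that motif. Ifit1 lies at chr19:34640729-34640888 on the plus strand, Rsad2 at chr12:26456453-26456612 on the minus strand and Isg15 at chr4:156200819-156200978 on the minus strand.
Ifit1: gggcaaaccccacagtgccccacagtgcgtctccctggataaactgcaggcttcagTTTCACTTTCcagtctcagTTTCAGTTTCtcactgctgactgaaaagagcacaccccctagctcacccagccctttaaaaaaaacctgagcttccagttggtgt
Rsad2: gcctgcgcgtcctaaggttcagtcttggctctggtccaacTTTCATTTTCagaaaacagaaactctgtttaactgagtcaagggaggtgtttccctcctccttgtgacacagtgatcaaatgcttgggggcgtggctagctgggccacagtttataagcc
Isg15: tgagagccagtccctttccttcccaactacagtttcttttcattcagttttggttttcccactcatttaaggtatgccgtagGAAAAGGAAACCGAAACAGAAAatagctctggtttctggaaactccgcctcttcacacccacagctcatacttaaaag
Ifit1 holds 2 matches, Rsad2 1 and Isg15 3 that overlap one another. Of the 25 interferon genes 20 matched a RefSeq promoter, and 10 of the 20 held the motif in the 250 bases before the start, against 3.46% of all 27025 genes and 1 of 18 sterol genes. The list was drawn up as known interferon targets, so this share describes the list and bears on no difference between the ages.

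Immediate early genes encode transcription factors and feedback regulators whose transcripts appear within minutes of a stimulus. Of 22 tested, 0 passed with all libraries and 15 rose without P25 replicate 2, against 7.05% of all genes. The medians were 0.21 and 0.76. Over the 5 remaining libraries P49 lay above P25 for 22 of 22, against 26.6% of all genes, and over all 6 libraries for 0 of 22. Junb, a subunit of the AP-1 transcription factor, was at 189, 509 and 153 FPKM at P25 and at 368, 339 and 334 FPKM at P49 (1.02 ± 0.18, adjusted p = 0.00378 without P25 replicate 2, but 0.0646 without P25 replicate 3 as well). Fos was at 228, 588 and 208 FPKM at P25 and at 345, 285 and 344 FPKM at P49 (0.57, adjusted p = 0.0453, up to 0.262 with 1 of 7 further libraries left out). With all libraries the adjusted p was 0.41 for Junb and 0.892 for Fos. Ier3, a regulator of cell survival, was at 77.8, 164 and 65.6 FPKM at P25 and at 165, 166 and 143 FPKM at P49 (1.13 ± 0.14, adjusted p = 0.000572 without P25 replicate 2, 0.106 with it). In each of these genes P25 replicate 2 lay within or above the P49 range.

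Genes of lysosomes and autophagy rose in small numbers. Of 22 tested, 4 rose in both fits, among them Sqstm1, Lipa and Gabarapl1, and 0 fell with all libraries. Among all genes 3.49% rose with all libraries and 7.05% without P25 replicate 2. Sqstm1, the autophagy receptor p62, was at 181, 274 and 185 FPKM at P25 and at 288, 331 and 360.4 FPKM at P49 (0.63 ± 0.15, adjusted p = 0.0243, up to 0.104 with 1 of 4 libraries left out). Lipa, lysosomal acid lipase, was at 21.2, 29.1 and 19.3 FPKM at P25 and at 35.2, 34.8 and 35.7 FPKM at P49 (0.60 ± 0.17, adjusted p = 0.0491, up to 0.143 with 1 of 12 left out). Gabarapl1 rose by 0.52, with an adjusted p of up to 0.0826 when 1 library was left out. None of the 4 overlapped between P25 and P49. Gpnmb, a glycoprotein of lipid-laden macrophages, passed without P25 replicate 2 only (2.14 ± 0.49, adjusted p = 0.0143, 0.0696 with all libraries).

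Markers of other skin cells moved with the ages and are given for the whole lists. Hair shaft and inner root sheath keratins were present at P25 and nearly absent at P49. Krt71 was at 0.989, 46.1 and 11.3 FPKM at P25, from 62, 2754 and 602 reads, and at 0.0193, 0.00 and 0.0805 FPKM at P49, from 1, 0 and 5 reads. Its difference was -3.34 ± 0.86 (adjusted p = 0.0389), lost with any one of 9 libraries left out (adjusted p up to 0.114), and -2.26 (adjusted p = 0.0437) without P25 replicate 2. Krt25 was at 0.631, 31.6 and 7.63 FPKM at P25 and at 0.00, 0.0200 and 0.141 FPKM at P49 (-2.87, adjusted p = 0.0491, and 0.0582 without P25 replicate 2). Of 18 such markers 6 were tested, and 2 fell with all libraries (against 3.11% of all genes). Their summed level was 3.21 to 134.1 FPKM at P25 and 0.151 to 0.516 FPKM at P49, and Krt34 was at 0 throughout. The epidermal gene Lgals7 fell in the same libraries, from 0.832, 21.5 and 4.94 FPKM to 0.336, 0.105 and 0.420 FPKM (-2.29, adjusted p = 0.0478, up to 0.131 with 1 of 13 libraries left out, and -1.37 without P25 replicate 2). Of 4 melanocyte genes Pmel and Dct fell in both fits, against 3.11% and 8.21% of all genes. Pmel was at 0.752, 2.78 and 1.81 FPKM at P25 and at 0.278, 0.392 and 0.281 FPKM at P49 (-1.01, adjusted p = 0.0205, up to 0.0763 with 1 of 4 libraries left out). Keratinocyte markers summed to 13.2, 77.0 and 28.2 FPKM at P25 and to 11.9, 10.3 and 13.0 FPKM at P49, with 0 of 9 called. Their part in the falls of low-abundance genes such as Gli1 and Hhip was not tested.

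Globin RNA, a sign of blood in the sample, was lower at P49. Of 6 erythroid genes 4 fell with all libraries and 3 without P25 replicate 2, against 3.11% and 8.21% of all genes. Hba-a2 was at 6.79, 12.8 and 6.28 FPKM at P25 and at 2.52, 2.44 and 0.889 FPKM at P49 (-1.70 ± 0.31, adjusted p = 0.00994, robust). Hba-a1 and Hbb-bs fell by 1.91 each on the log2 scale, with adjusted p of up to 0.0831 and 0.109 when P49 replicate 2 or 3, or 1 or 3, was left out. The 2 alpha-globin genes are near-identical, so that their reads may be shared. Endothelial markers gave 0 calls of 16 in either fit, with a median of -0.51 with all libraries and 0.11 without P25 replicate 2. Pecam1, an adhesion molecule of endothelium, was at 10.7, 40.9 and 8.43 FPKM at P25 and at 11.3, 13.1 and 9.90 FPKM at P49. Mast cell markers gave 0 of 8 (median -1.37 and -0.64) and skeletal muscle genes 0 of 12 (median 0.28 and 0.55). Mcam, of the pericyte list, rose from 101, 68.1 and 103 FPKM to 139, 136 and 161 FPKM (0.70 ± 0.14, adjusted p = 0.0146, but 0.0704 without P49 replicate 3), as the 1 call of 10 in both fits. Of 20 cell cycle genes Aurka fell with all libraries (-0.80, adjusted p = 0.0479, lost without 14 of the libraries with an adjusted p of up to 0.152) and 0 passed without P25 replicate 2. The median of that list was -0.78 and -0.36. Of 20 genes of the unfolded protein and integrated stress response Chac1 rose in both fits (0.89 and 0.86, adjusted p = 0.0403 and 0.0468, up to 0.156 with 1 of 9 libraries left out), and the chaperones Calr and Canx fell without P25 replicate 2 (-0.40 and -0.25). Of 21 adipogenic transcription factors 0 passed with all libraries, and without P25 replicate 2 Cebpb, Cebpd, Ebf2, Klf4 and Egr2 rose and Pparg fell. These rises were lost with P25 replicate 3 left out too. Those of Ebf2 and Klf4 were also lost without any one P49 library, and that of Cebpb without P49 replicate 1 or 3. Beside these rises and those of Mcam and Chac1, 3.49% of all genes rose with all libraries and 7.05% without P25 replicate 2. The neutrophil, nerve, dermal papilla and sebaceous lists gave 0 calls with all libraries. In the other fit they gave rises of Csf3r, Egr2 and Soat1 and falls of Camp and Fgf10.

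**Figure D4:**
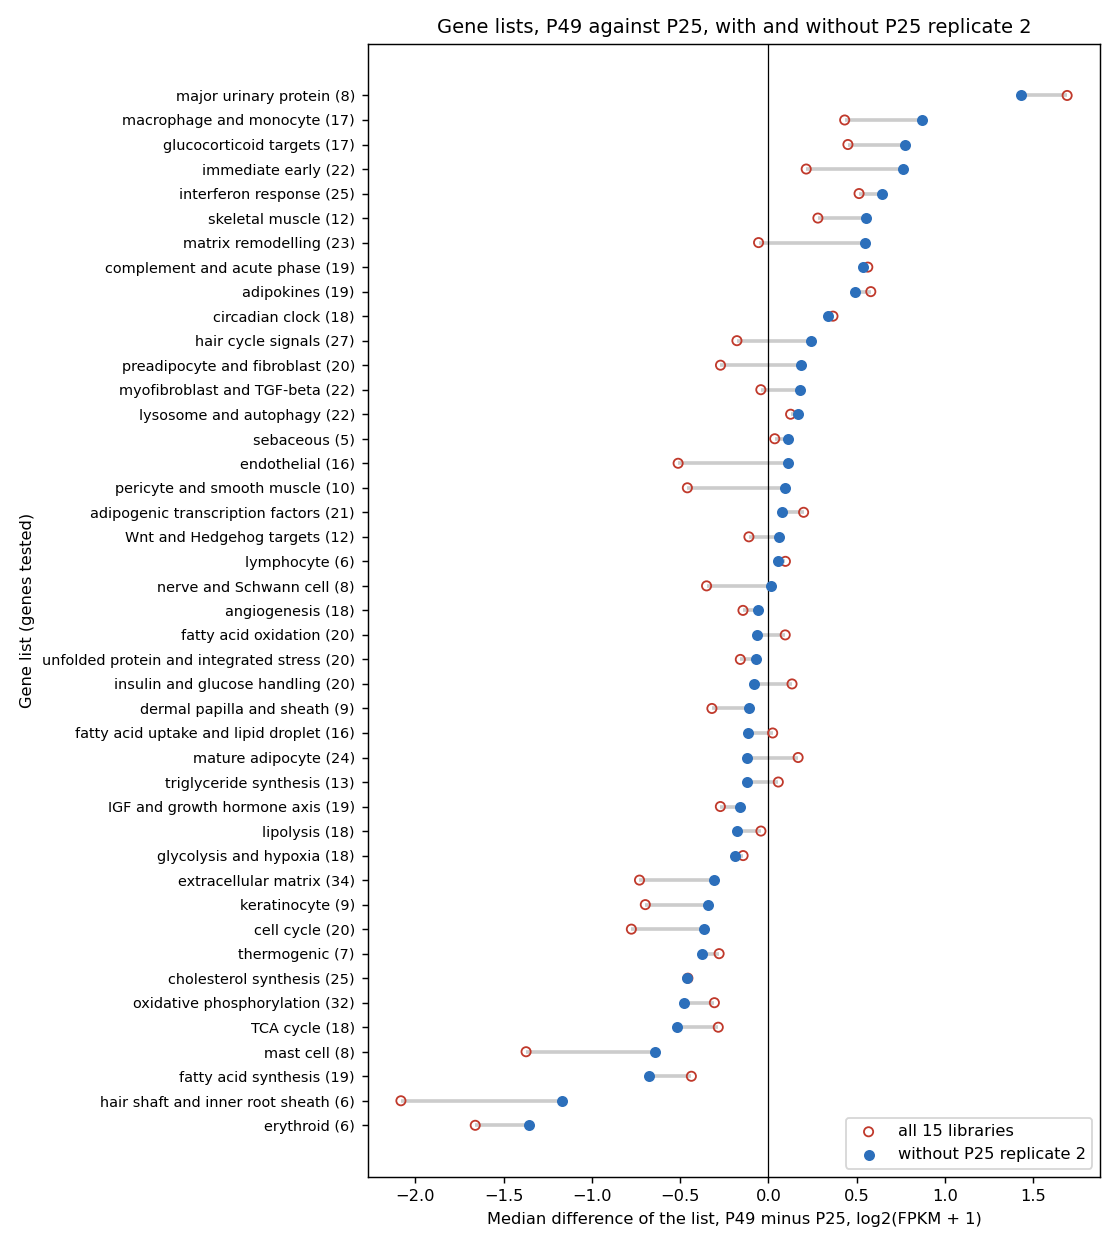
Median difference between P49 and P25 (x axis, log2(FPKM + 1)) of the 43 gene lists with at least 5 genes tested (y axis, number tested in parentheses), with all libraries (open red circles) and without P25 replicate 2 (filled blue circles). Cholesterol synthesis stays at -0.46, while endothelial genes move from -0.51 to 0.11 and immediate early genes from 0.21 to 0.76.

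In the plot of list medians, 13 of all 45 lists changed sign when P25 replicate 2 was left out, among them endothelial, preadipocyte and fibroblast, hair cycle signals and mature adipocyte genes. Sterol, fatty acid, oxidative phosphorylation, TCA cycle, matrix, hair shaft and erythroid genes stayed below 0 in both fits. Major urinary protein, complement, adipokine, glucocorticoid and interferon genes stayed above 0.

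The other ages place these differences in time. Of the 370 genes higher at P49 in both fits, the P29 mean lay between P25 (replicates 1 and 3) and P49 for 284 and the P35 mean for 310, and for 191 the 4 means ran in order of age. Of the 342 lower genes the counts were 283, 305 and 188. For 147 of the higher and 115 of the lower genes, the P49 libraries lay beyond all 12 other libraries of the series, as for Pon1, Cyp2e1 and C7. For 42 and 69 genes the P25 libraries, replicate 2 included, lay beyond all 12 libraries of the other ages, so that P25 was the extreme age. P25 replicates 1 and 3 alone did so for 65 of the higher and 121 of the lower genes. With P25 replicate 2 left aside, the P49 libraries lay beyond the 11 others for 148 and 116 genes. The same libraries chose the genes, and the counts are a description with no test.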

How the data were processed

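RNA was extracted with Trizol and a Qiagen kit and made into libraries with the NEBNext Ultra RNA kit, per the labels' protocols. The submitters' processing notes name CASAVA, FastQC, STAR 2.5, HTSeq 0.6.1 and the mm10 (GRCm38) build. The strand setting and the annotation release are not given in the sources used here, so reads of overlapping or antisense genes cannot be told apart. The deposited values are FPKM per gene and library, computed by the authors, beside each gene's length. FPKM times gene length gave whole reads, within 0.05 read, for all values. At the depths in the report, 3 reads on a gene of 1 kb are worth 0.105 to 0.127 FPKM in the compared libraries.

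Values were analysed as log2(FPKM + 1) in limma 3.58.1 (R 4.3.3, statmod 1.5.0), with 1 mean per age over the 15 libraries (14 without P25 replicate 2), a trended, robust empirical Bayes variance and Benjamini-Hochberg adjustment over 12259 genes (threshold 0.05). Summaries and figures used Python 3.11.15, numpy 2.4.6, pandas 2.3.3 and matplotlib 3.10.9. The filter drew on all 15 libraries. Named genes were the 15 largest called rises and falls with no overlap and at least 5 FPKM at the higher age, the 5 largest further ones per direction without P25 replicate 2, up to 3 called members per direction of each of 45 gene lists, and a set of adipocyte and other cell markers. C1ra, C1s1, Cp and the other members named only in lists of calls, and the genes whose promoters are shown, were chosen after their values were seen. The members and lists were chosen with earlier results of these data known. All 804 genes of the lists were found in the table, and 681 were tested. Tested on data simulated from these libraries, the fit of all libraries found 42% of 100 genes given a 2-fold change and 99% of 98 given a 4-fold change, and called 4 of 11855 genes left as they were. The fit without P25 replicate 2 found 24% and 99%, and called 5 such genes. In the simulation all libraries shared the same gene means, apart from the changed genes at P49, and all genes the same spread setting. No library stood apart as P25 replicate 2 did, so these shares do not give the recovery or false calls in the data. Promoters came from RefSeq (GRCm38.p6), matched by symbol. Alternatives were other scalings, pseudocounts and filters, other variance settings, library weights, a replicate block, voom on the recovered reads, a 2-fold minimum, and leaving out each library. Where an omission leaves 1 P25 library, that library is assumed to vary like the other ages. Some named genes are not reported here.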

Additional observations from a re-analysis of the deposited data

How the results depend on the processing

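With all libraries 809 genes differed. The count was 514 with no filter on low values, 29 with the P25 and P49 libraries alone, 3036 with library weights, 2 with a 2-fold minimum (limma's treat) and 1871 without P25 replicate 2. With 1 library left out it ran from 260 to 1871. Without P25 replicate 2 the 1871 genes became 3103 with library weights and 5 with the 2-fold minimum, and 341 to 2027 with 1 further library left out. Why the counts moved was not tested. Quantile scaling, median-ratio scaling, a pseudocount of 0.1, a filter at 5 FPKM and voom on the recovered reads kept both counts within 1.5 times. The labels do not say that replicate numbers pair the libraries. Deviations of same-numbered P25 and P49 libraries correlated at -0.0447, 0.203 and 0.269, and those of different-numbered ones at -0.303 to 0.276. With so few libraries per age, these values cannot decide whether the numbers pair them. With the replicate number as a block 821 and 1502 genes were called. Over the alternatives, values of named genes kept their direction and their side of the threshold in 3058 cases, lost the threshold in 493, passed it in 106 and moved otherwise in 20. No gene called with all libraries changed sign. Of 142 named genes 10 took both signs, Adipoq, Pecam1, Dpp4, Klf4 and Ghr among them, and 0 of the 10 were called with all libraries. List medians moved by more than the median SE of their single genes in 35 cases and by less in 1000. Krt71, Krt25 and Hhip rested on at most 9 reads in each P49 library, which limits their fold changes.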
